A study of Mus musculus with 4 samples.

Results

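Surfactant proteins and airway secretory genes were examined in RNA of sorted mouse lung alveolar macrophages, the phagocytes of the air spaces. These cells clear surfactant made by the neighbouring epithelium and are not themselves its source, so transcripts of that epithelium bear on how much epithelial RNA a sort carries. The set held 10 genes chosen by name and not by their values, although earlier results of these data were known by then. They encode surfactant proteins A, B, C and D (Sftpa1, Sftpb, Sftpc, Sftpd), the secretoglobins of club cells (Scgb1a1, Scgb3a2), the lung epithelial transcription factor Nkx2-1, the type I cell genes Ager and Aqp5, and Lamp3, a lysosomal and lamellar body membrane protein. Probes were found through the accessions on the array, which gave 12 probes for 9 of the 10 genes, among 19751 genes with a probe. No probe was matched to Scgb3a2, which was not analysed here.

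The groups were wild-type (WT) and Bach2KO mice, the latter lacking the transcriptional repressor Bach2. The sources used here do not give strain, age, sex or the form of the Bach2 allele. Cells of 8 WT and of 4 Bach2KO mice were pooled by genotype per the labels' protocols, whereas the series design text gives 3 Bach2KO mice. The cells were sorted by flow cytometry, with a gate that the sources used here do not state, and 1 RNA sample per genotype was split, amplified and labelled separately, and hybridised to 2 arrays. The 2 arrays of a genotype are therefore technical repeats. Every SD below is the spread of labelling and hybridisation of 1 RNA sample and leaves out the spread between mice, and no test between genotypes was possible. All 4 arrays lay on 1 slide with the genotypes in adjacent positions, so genotype and position cannot be told apart.

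Surfactant is a film of phospholipid and protein at the surface of the air spaces. Type II alveolar cells make it and store it in lamellar bodies: surfactant proteins B and C are hydrophobic and keep the film spread, while A and D are collectins that bind microbes and surfactant lipid. Club cells of the airways secrete Scgb1a1 and also make surfactant proteins A, B and D, type I cells form the thin gas-exchange surface, and Nkx2-1 drives the genes of type II and club cells. Lamp3 is also a marker of mature dendritic cells.

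The promoters of 2 of these genes are shown because they part in the results: Sftpb was called higher in Bach2KO, from signals near background, and Lamp3 was close to level. Each stretch runs from 250 bases before to 50 after the start of the gene (RefSeq, GRCm38.p6), 5′ to 3′ on the strand of the gene. Capitals mark matches on either strand to TGANTCA, a core bound by AP-1 and Bach factors, or to GCNCTNNAG, a form of the Nkx2-1 site known from surfactant promoters. Sftpb lies at chr6:72304360-72304659 on the plus strand and Lamp3 at chr16:19706316-19706615 on the minus strand.
Sftpb: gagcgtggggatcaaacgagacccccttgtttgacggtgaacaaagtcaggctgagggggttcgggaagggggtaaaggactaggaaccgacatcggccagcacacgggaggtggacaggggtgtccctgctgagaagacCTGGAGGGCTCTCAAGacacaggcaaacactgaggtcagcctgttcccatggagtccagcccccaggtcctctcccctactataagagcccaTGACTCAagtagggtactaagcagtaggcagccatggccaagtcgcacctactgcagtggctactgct
Lamp3: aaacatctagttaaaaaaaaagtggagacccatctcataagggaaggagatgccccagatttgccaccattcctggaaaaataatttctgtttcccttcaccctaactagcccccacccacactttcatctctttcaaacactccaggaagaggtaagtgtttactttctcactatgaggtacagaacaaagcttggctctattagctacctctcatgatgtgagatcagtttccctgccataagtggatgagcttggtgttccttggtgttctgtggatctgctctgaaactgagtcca
The Sftpb stretch held 1 match to TGANTCA, at position -18 from the start, and 2 overlapping matches to GCNCTNNAG, at -110 and -103. The Lamp3 stretch held neither, nor did those of Ager and Aqp5. Those of Sftpa1 and Nkx2-1, not well above background on any array, each held 1 match to GCNCTNNAG and 0 to TGANTCA. Across 32851 mouse promoters of 300 bases, 7.81% held TGANTCA and 17.5% held GCNCTNNAG. A match is a description of letters, and binding was not measured.

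Scgb1a1 and Sftpb were the 2 genes of the set called higher in Bach2KO, Scgb1a1 by 1.61 on the log2 scale and Sftpb by at least 1.12, since its WT signal was not well above background. Sftpc, Sftpd, Aqp5 and Lamp3 differed by 1.35-fold or less on the probe that stands for each, Ager was near background, and Sftpa1 and Nkx2-1 were not well above background on any array. Values are log2 processed signals relative to the 75th percentile of their array, so 0 is the 75th percentile and a difference of 1 is 2-fold. To count as measured, a gene needed a probe well above background on the 2 arrays of 1 genotype or of both, and its brightest probe stood for it. It was called only if each Bach2KO array was at least 2-fold above, or below, each WT array. Of the 9 genes with a probe, 7 were measured: 2 were called higher, 0 lower and 5 neither. Among all 15123 measured genes, 8.38% were called higher and 5.89% lower. The median difference was 0.25 over the 7 genes and 0.07 over all measured genes. Sftpb passed the filter through its Bach2KO arrays alone and so had to differ, and the count of 2 in 7 is a description only.

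**Figure D1:**
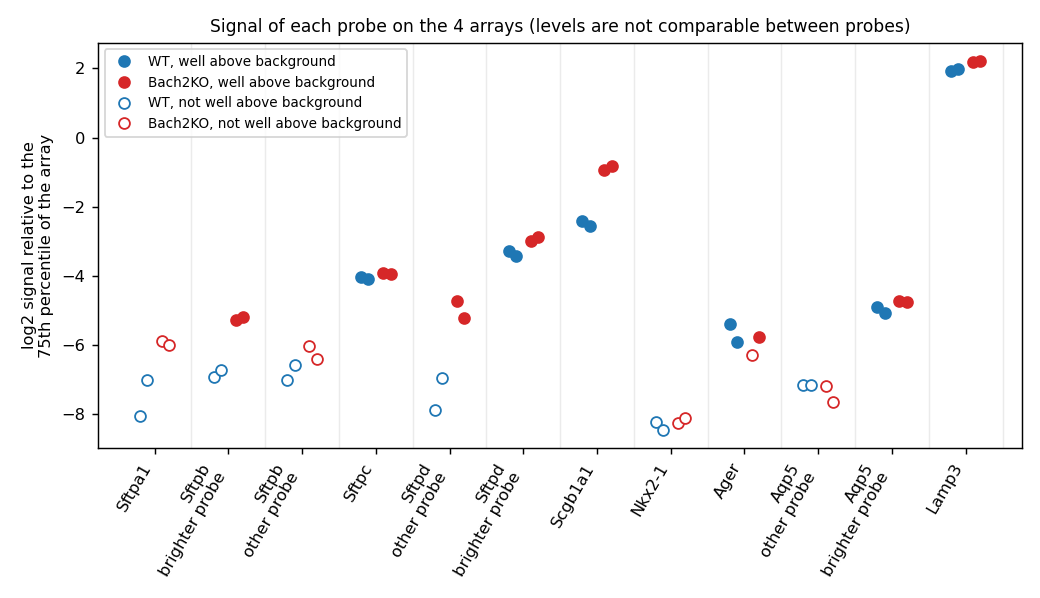
Log2 signal of each of the 12 probes on the 4 arrays (vertical axis, relative to the 75th percentile of the array), with WT in blue and Bach2KO in red, and open circles where the probe was not well above background. The Scgb1a1 pairs stand apart with all 4 circles filled, from -2.57 to -2.40 in WT and from -0.94 to -0.81 in Bach2KO, whereas Sftpa1, Nkx2-1 and the other probes of Sftpb and Aqp5 have open circles only.

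Scgb1a1, the major secreted protein of club cells, was measured with the greatest depth in the set, since its probe is printed on 10 spots per array. Its log2 signals were -2.40 and -2.57 in WT, against -0.94 and -0.81 in Bach2KO. The Bach2KO arrays were both higher and the pairs did not overlap, with a WT mean of -2.48 ± 0.12 and a Bach2KO mean of -0.87 ± 0.09 (SD, n = 2 arrays). The difference was 1.61, or 3.06-fold, and between 1.47 and 1.76 over the 4 array pairs. On the intensity scale, before any scaling between arrays, the WT spots ran from 206 to 284 and from 225 to 300. The Bach2KO spots ran from 513 to 568 and from 523 to 605. Every spot on a Bach2KO array was thus brighter than every spot on a WT array, although the Bach2KO arrays were dimmer as a whole, with 75th percentiles of 1037 and 979 against 1267 and 1517. The coefficient of variation over the 10 spots lay between 3.98% and 10.3% on the 4 arrays.

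Nkx2-1, the transcription factor that type II and club cells share, was also printed on 10 spots, of which 9 entered on each array after 1 outlier spot was left out. The spot left out was well above background on both WT arrays (25.1 and 44.8) and on neither Bach2KO array (6.39 and 4.34). Of the spots used, 0 of 9 were well above background on each of the 4 arrays. Median intensities were 4.37 and 4.10 in WT and 3.46 and 3.57 in Bach2KO, below the lowest intensity well above background on each array (14.3 to 18.0). On the spots used, the RNA that gave the Scgb1a1 signal therefore gave no Nkx2-1 signal above background at either genotype. This is a bound set by the brightness of this probe and not a level of 0.

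**Figure D2:**
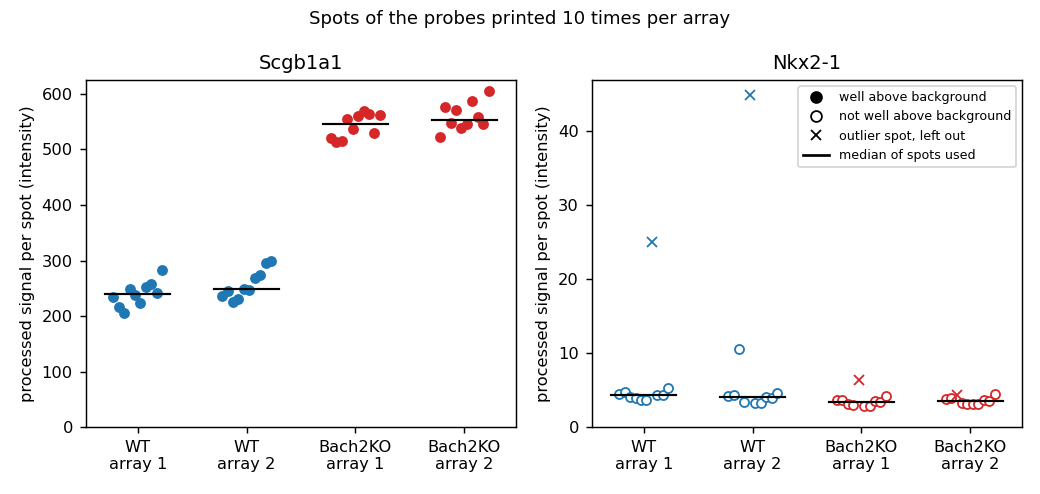
Processed intensity of single spots on each array for Scgb1a1 (left) and Nkx2-1 (right), on linear axes that start at 0 and differ between panels; bars are medians of the spots used, open circles are spots not well above background and crosses are outlier spots. Bach2KO spots of Scgb1a1 start at 513 and WT spots end at 300, while no used Nkx2-1 spot is filled.

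Surfactant protein B, which is essential for the surfactant film, was near the limit of the array. On its brighter probe the log2 signals were -6.94 and -6.73 in WT, where it was not well above background, and -5.27 and -5.18 in Bach2KO, where it was. In intensity these were 10.3 and 14.3 against 26.8 and 27.0, with an error of 3.87 to 4.22 per spot given by the scanner software. The groups did not overlap, as for 85.1% of all measured genes. For Sftpb this was largely set in advance, since it passed the filter through its Bach2KO arrays alone. With the WT level known only as a bound, Sftpb was higher by at least 2.18-fold. That bound sets the Bach2KO mean against the mean of, per array, the lowest signal well above background or the signal of the probe where that was higher. The other Sftpb probe was not well above background on any array, and no difference is given for it. After normexp background correction, which models the background in place of subtracting it, Sftpb differed by 0.56 and was not called, and without the second WT array it was not called either.

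Surfactant protein C, made by type II cells alone in the adult lung, was well above background on all 4 arrays and nearly level. Its log2 signals were -4.02 and -4.08 in WT and -3.91 and -3.95 in Bach2KO. The difference of 0.12, or 1.09-fold, had pairs between 0.07 and 0.17, all in the same direction. It was less than the SD of differences between the single WT arrays over all genes (0.26), as was that of Lamp3 (0.25). This type II cell gene was thus not called, in the same arrays in which Scgb1a1 and Sftpb were.

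Surfactant protein D gave different answers on its 2 probes. The brighter probe read -3.29 and -3.42 in WT and -2.98 and -2.87 in Bach2KO, a difference of 0.43, or 1.35-fold, which was not called. The other probe was not well above background in WT (-7.89 and -6.96) and was in Bach2KO (-4.72 and -5.22). By that probe the Bach2KO level was at least 2.61-fold higher. It passed the filter through its Bach2KO arrays alone, so its direction was largely set in advance. With probes averaged, Sftpd differed by 1.44 and was called higher. That average took in the WT signals of the other probe, which were not well above background, without a bound. The sources used here do not give which part of the transcript each probe reads. Surfactant protein A (Sftpa1) read -8.05 and -7.01 in WT and -5.87 and -6.00 in Bach2KO, not well above background on any array, and no fold is given.

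Of the type I cell genes, Aqp5, a water channel, read -4.90 and -5.08 in WT and -4.74 and -4.76 in Bach2KO on its brighter probe, a difference of 0.24 that was not called. Its other probe was not well above background on any array. Ager, the receptor for advanced glycation end products, read -5.38 and -5.90 in WT and -6.29 and -5.77 in Bach2KO, with 1 of the 2 Bach2KO arrays not well above background. Ager was the measured gene of the set whose groups overlapped, and its difference of -0.39 was about the SD between arrays of a genotype (0.37) and turned to 0.25 after normexp. The other 6 did not overlap, as was also the case for 85.1% of all measured genes.

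Lamp3 was far above background, with intensities of 4845 and 5962 in WT and 4742 and 4535 in Bach2KO. Relative to its array it read 1.94 and 1.98 in WT and 2.19 and 2.21 in Bach2KO, a difference of 0.25, or 1.19-fold. The pairs ran from 0.22 to 0.28, so the difference was repeatable between arrays and below the size that was called. Because Lamp3 also marks mature dendritic cells, that list is given beside it. Of its 11 genes 10 were measured: 1 was called higher (Ccl17, a chemokine, 4.23-fold), 1 lower (Cd83, 2.33-fold) and 8 neither. Its median difference was 0.23, with summed signals of 10.2 to 10.6 times the 75th percentile in WT and 7.67 to 7.73 in Bach2KO. Whether dendritic cells or macrophages gave the Lamp3 signal was not tested.

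The directions of the smaller differences depended on the scaling between arrays. The arrays carry spike-in probes that report RNA added before labelling, and scaling on the 9 of them well above background lowered every difference by 0.72, with the median of all genes at -0.66 in place of 0.07. Scgb1a1 then differed by 0.89 and Sftpb, measured against a WT signal near background, by 0.88, and neither was called, and Sftpc, Sftpd, Aqp5 and Lamp3 were below 0, at -0.61, -0.29, -0.49 and -0.48. Calls over all genes changed from 1268 higher and 890 lower to 627 higher and 3214 lower. Relative to the median of all genes, the differences were 1.55 for Scgb1a1, 0.05 for Sftpc, 0.37 for Sftpd and 0.18 for Lamp3 under either scaling. These have to match, since each scaling subtracts a constant per array. Ratios within an array need no scaling. The ratio of Scgb1a1 to Sftpc was 2.82-fold higher in Bach2KO, and those to Sftpd, Aqp5 and Lamp3 were between 2.27-fold and 2.60-fold higher. The signals of Scgb1a1 and Sftpc therefore changed unequally whatever the scaling. In bulk RNA, fewer cells of a type and less RNA per cell cannot be told apart.

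**Figure D3:**
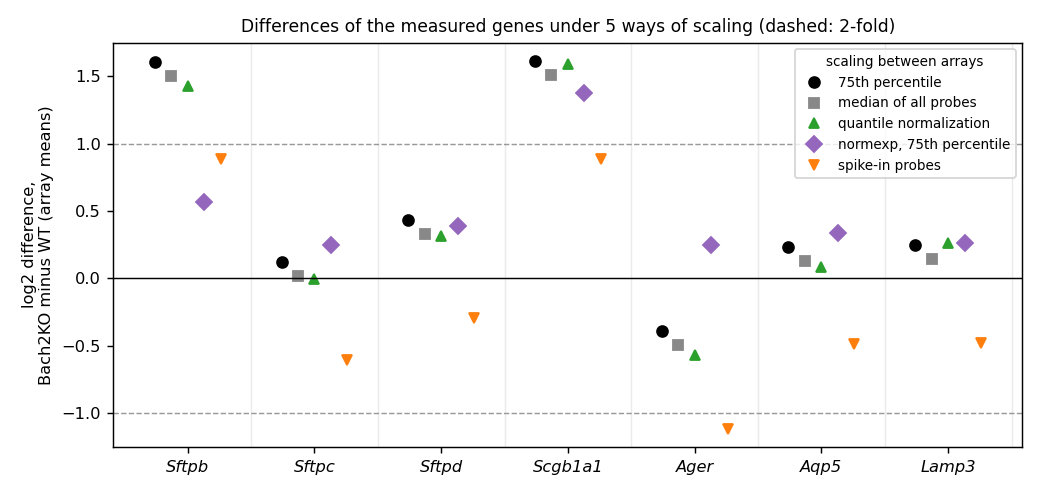
Difference between array means, Bach2KO minus WT on the log2 scale, for the 7 measured genes under 5 ways of making the arrays comparable, with Sftpb set against a WT signal that was not well above background; dashed lines mark 2-fold. Scgb1a1 and Sftpb are above 0 under each of the 5, at 0.89 and 0.88 on the spike-in scale, whereas Sftpc, Sftpd, Aqp5 and Lamp3 turn negative with the spike-in probes. Sftpb passed the filter through its Bach2KO arrays alone, so its sign was largely set in advance.

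Further lists of lung epithelial genes were read beside the set, as a wider view of epithelial RNA. The 5 lists held 76 genes, of which 50 were measured: 8 were called higher, 6 were lower, 36 were neither, and the median difference was 0.24. Over all measured genes 8.38% were called higher and 5.89% lower, and 2 of the 14 calls, Reg3g and Epcam, were of genes above background in 1 genotype only. The remaining 25 genes with a probe did not pass the filter on dim probes. Where these are said below to be not well above background at either genotype, they were not so on both arrays of a genotype. Signal above background on 1 array of a genotype is not excluded for them. The signals of all 75 genes with a probe summed to 202 and 183 times the 75th percentile in WT and to 178 and 181 in Bach2KO. Most of each sum came from the Lyz1 and Krt19 probes, given below. On the spike-in scale the medians of all 5 lists were below 0, between -0.25 and -0.65, with all genes at -0.66, and the ciliated cell median was also below 0 with median scaling (-0.03) and quantile normalization (-0.07).

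Club cell genes held 3 called higher and 0 lower among 11 measured of 16, with a median of 0.48. Scgb3a1, a secretoglobin, read -5.65 ± 0.06 in WT and -3.06 ± 0.07 in Bach2KO (SD over 2 arrays), 5.98-fold higher. Cyp2f2, a cytochrome P450 of club cells, read -5.92 in WT and -4.59 in Bach2KO, 2.52-fold higher, and was not called after normexp or spike-in scaling. Reg3g, an antimicrobial lectin, was at least 9.01-fold higher, and passed the filter through its Bach2KO arrays alone. The summed signal of the list was at most 1.003 in WT and 1.46 to 1.57 in Bach2KO, while Aldh1a7, Gabrp, Cckar, Cldn10 and Pon1 were not well above background at either genotype.

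Type II cell genes went both ways. Of 15 genes 10 were measured, of which 2 were higher and 1 was lower (median 0.35). Etv5, a transcription factor, was 4.89-fold higher, and Lpcat1, an acyltransferase of surfactant phospholipid synthesis, was 2.89-fold higher, a call that was lost after normexp or spike-in scaling. Napsa, the aspartic protease that processes surfactant protein B, was 3.11-fold lower. Slc34a2, Cxcl15, S100g, Egfl6 and Chil1, which type II cells express, were not well above background at either genotype. The summed signal ran from 101 to 121 in WT and from 129 to 131 in Bach2KO, and most of it came from the Lyz1 probe (log2 6.53 in WT and 6.82 in Bach2KO), which may also bind the near-identical macrophage lysozyme transcript.

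Surfactant assembly and processing genes, many of them used by macrophages too, had 9 measured of 10, and 3 of the 9 were higher and 1 was lower (median 0.31). Chpt1, which completes phosphatidylcholine synthesis, was 4.26-fold higher, Lpcat1 and Napsa were as given above, and the remaining call, named after its value was seen, was Pcyt1a, the rate-limiting enzyme of that synthesis (2.17-fold higher). The calls of Lpcat1 and Pcyt1a were lost on the spike-in scale, and that of Pcyt1a also with median scaling (1.01) and quantile normalization (1.07). Abca3, the lipid pump of lamellar bodies, named for the same reason, read 3.69 ± 0.03 in WT and 3.63 ± 0.05 in Bach2KO. Among 8 genes listed here as surfactant protein receptors, Cd93 was called higher (13.4-fold) and the other 7 were called neither way (median -0.04). Whether each of them binds a surfactant protein was not examined.

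Type I cell genes had 8 measured of 12, of which 2 were higher and 1 was lower (median 0.14). Pdpn, podoplanin, was 10.6-fold higher and Hopx, a homeodomain cofactor, 8.81-fold higher. Akap5, a kinase anchor, was 12.0-fold lower. The summed signal was 4.02 to 4.14 in WT and 22.3 to 22.4 in Bach2KO, where Pdpn (log2 4.26) carried most of it, while Clic5, Cldn18 and Col4a3 were not well above background at either genotype.

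Ciliated cell genes had 9 measured of 13, of which 0 were higher and 1 was lower (median 0.07). The 1 called, Tppp3, a tubulin-binding protein, was 11.1-fold lower, and the summed signal was 14.5 to 14.7 in WT and 4.88 to 4.91 in Bach2KO. Tppp3 (log2 3.12 and 3.21 in WT, -0.31 and -0.32 in Bach2KO) carried most of the WT sum. The other 8 measured genes were called neither way. Ccdc39, Dnah5, Cdhr3 and Sntn were not well above background at either genotype.

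General epithelial adhesion, keratin and factor genes had 12 measured of 20, of which 1 was higher and 3 were lower (median 0.15). Epcam, an epithelial adhesion molecule, read 0.52 and 0.55 in WT and -8.19 and -8.09 in Bach2KO, where it was not well above background, so it was at least 98.0-fold lower. Ocln, a tight junction protein, was 8.00-fold lower, and St14, a membrane protease, was 17.6-fold higher. The remaining call, named after its value was seen, was Krt19, a keratin, 3.98-fold lower. Krt7, Krt8, Cldn3, Elf3, Grhl2, Foxa1, Foxa2 and Sox2 were not well above background at either genotype, and the summed signal was 61.5 to 62.5 in WT and 20.2 to 21.2 in Bach2KO. Krt19 (log2 5.83 in WT and 3.84 in Bach2KO) carried most of that sum. Scgb1a1 thus went the same way as St14 and the opposite way to Epcam, Ocln and Krt19. The other 8 measured genes of the list were called neither way. The part of epithelial RNA in any of these differences was not tested.

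**Figure D4:**
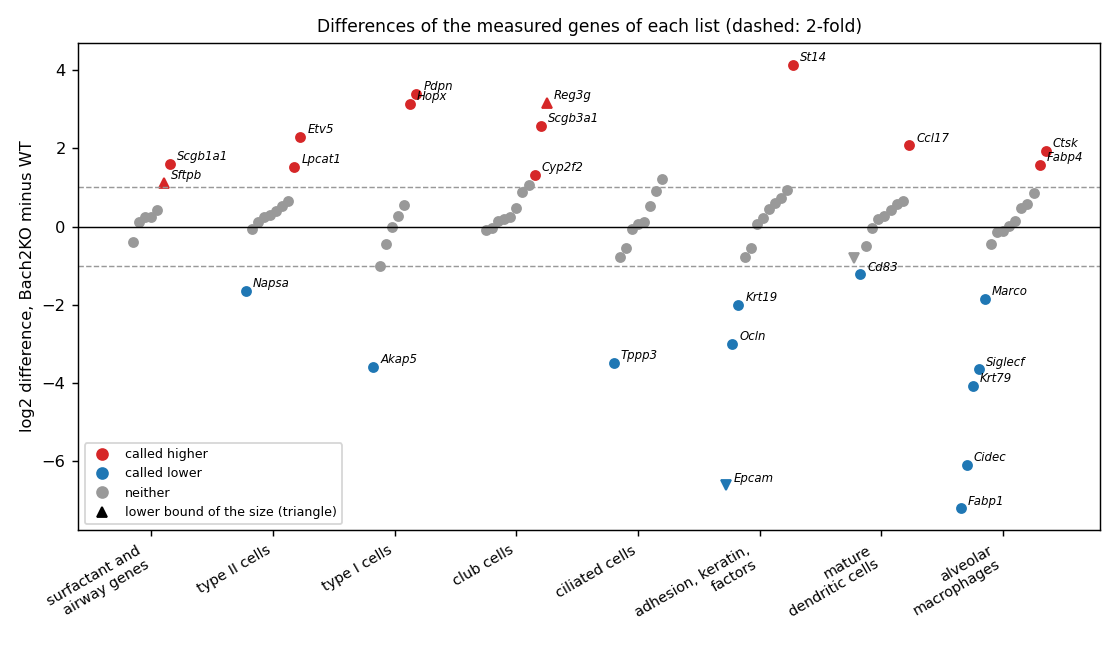
Log2 differences, Bach2KO minus WT, of the measured genes in 8 lists (points; triangles are bounds), red where called higher and blue where called lower; dashed lines mark 2-fold. The surfactant and airway set has 2 red points and the club cell list 3, with no blue point in either, while the adhesion and keratin list has 3 blue points and 1 red.

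The cell label was checked on 4 genes of alveolar macrophages, and all 4 were well above background on every array. Itgax, at a difference of 0.59, and Pparg, at -0.10, were not called. Marco, a scavenger receptor, was 3.61-fold lower in Bach2KO and Siglecf, a surface lectin often used to gate these cells, 12.6-fold lower. Across the list of 15 alveolar macrophage genes, 2 were called higher and 5 were lower (median -0.10), with summed signals of 1063 to 1171 in WT and 1087 to 1092 in Bach2KO. The largest of the calls were Fabp1, Cidec and Krt79, 148-fold, 68.2-fold and 16.8-fold lower. The Bach2 probe was well above background on 1 of 2 arrays of each genotype and gave no check of the genotype, and the sources used here do not say whether it lies in the deleted part.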

How the data were processed

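RNA of 2 genotypes was read on 4 Agilent 1-colour arrays. Per the file headers, the spot intensity was deposited as the processed signal of Feature Extraction 10.7.3.1, background-subtracted within each array and not scaled between arrays; the submitters' processing notes name version 9.1. The authors' deposited table is in log2 units. Its columns matched the log2 signals of their arrays after subtraction of 1 constant each (SD of the difference at most 3.54e-07), which settled scale, centring and direction; column medians were -3.58, -3.67, -3.53 and -3.45.

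Control spots and outlier spots (109 to 136 of 43020) were left out, no spot was saturated, and repeated spots were averaged as log2 signals, from which the 75th percentile of the array was subtracted. Of the 39428 probes used, 27125 to 27917 were well above background. A probe with several spots counted as above background if at least a share of 0.5 of them did. The array design uses mm9, so symbols came through unversioned accessions from a RefSeq table (GRCm38.p6): 26055 probes had 1 symbol, 0 several and 13374 none. Where a genotype was not well above background on either array, the bound also had to reach 2-fold for a call. Every probe of the set was named, with up to 3 called genes of each list by size, the unmeasured genes of the epithelial lists and the check genes. A gene that the rule picks is not reported here. Members and lists were chosen with earlier results of these data known. The number of arrays limits the precision. There were 18 alternatives. Python 3.11.15 was used, and limma 3.58.1 in R 4.3.3 for normexp. The call rule was checked on simulated data in which every gene counted as well above background. That check did not reach the filter on dim probes or the bound.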

Additional observations from a re-analysis of the deposited data

How the results depend on the processing

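In the set, 2 genes were called higher, 3 with probes of a gene averaged (Sftpd being added), 1 after quantile normalization, after normexp or with a filter asking for signal above background on all 4 arrays, and 0 with spike-in scaling or a 3-fold rule; leaving out 1 array gave 1 to 2. The Sftpd call used WT signals of its other probe that were not well above background. No gene of the set was called lower under any alternative. Scgb1a1 differed by 0.89 to 1.70 over 18 alternatives and was called in 16, and Sftpb, against a WT signal near background, by 0.56 to 1.71 over 17 and was called in 12. Sftpc was positive in 16 of 18. Alternatives that altered only the fold, the pairing of arrays or the filter on dim probes left these differences as they were. The counts of alternatives are therefore a description and not that many separate checks. Over all genes 627 were higher and 3214 lower with spike-in scaling, 2239 and 1931 at 1.5-fold, and 696 and 410 at 3-fold, and 11 genes of the epithelial lists were lower with spike-in scaling against 6. At 1.5-fold the epithelial lists had 12 higher and 9 lower. Within single lists, spike-in scaling moved the genes called lower from 1 to 3 for ciliated, type I and mature dendritic cells, and those called higher from 3 to 1 for surfactant assembly. With the replicate block, in which only arrays of the same number were paired, 2 genes of the set were called higher and 1304 and 912 of all genes. Same-numbered arrays deviated with a correlation of -0.14; the crossed pairing, added after the data were seen, gave 1342 and 943. The spot mean was not in the scanner files, so normexp used the spot median. Signals near background limit Sftpb, Sftpa1 and Ager.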

Other observations

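Genes of other cell types that a lung sort can hold also differed in their levels, and their counts are to be read beside the 8.38% higher and 5.89% lower of all measured genes. Among monocyte and interstitial macrophage genes, the complement genes C1qa and C1qc were 17.0-fold and 13.9-fold higher in Bach2KO, and Ccr2, a chemokine receptor named after its value was seen, was 4.33-fold lower. Neutrophil genes had 3 higher and 0 lower of 7, with the calprotectin subunits S100a9 at least 32.5-fold and S100a8 13.5-fold higher and Retnlg at least 5.90-fold; S100a9 and Retnlg passed the filter through Bach2KO alone. T cell genes had 3 higher and 1 lower of 5, with Cd3d at least 6.16-fold and Lck 2.98-fold higher and Cd2 3.81-fold lower. The calls of Cd3d (after normexp) and Lck (with spike-in scaling) were lost, as was that of the remaining T cell gene, Cd3g, under both. B cell genes had 1 higher of 4 (Cd79b, at least 2.62-fold, lost under both), endothelial genes 1 of 4 (Cdh5, 21.3-fold), fibroblast genes 1 of 5 (Pdgfra, at least 6.34-fold) and erythroid genes 0 of 1, with Hba-a1 1.16-fold apart. Cd3d, Cd3g, Cd79b and Pdgfra also passed the filter through Bach2KO alone.

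Foxj1, the master factor of ciliated cells, was chosen after its values were seen: it read -5.71 and -3.31 in WT, against -2.58 and -4.00 in Bach2KO, so the 2 arrays of each RNA sample differed by more than 2-fold.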
